A study of Mus musculus with 21 samples.

Results

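The transcripts of 10 integrin subunits were followed in sorted mouse peritoneal B cells, in all 21 deposited RNA-seq libraries. The members are Itgal, Itgam, Itgax, Itgb2, Itga4, Itgb1, Itgb7, Itga6, Itgav and Itgb3, 10 of the 56953 genes in the count tables, and each was matched from its gene identifier by its GENCODE symbol without use of any measured value. The cells came from the peritoneal cavity of C57BL/6 mice, either TET2-KO animals, in which exons that encode the catalytic region of the DNA demethylase TET2 are deleted in all cells, or WT littermates, and the study describes the mice as young. B-1 cells were sorted as B cells low in IgD, CD23 and B220 and divided by CD5 into B-1a (CD5+) and B-1b (CD5-), and B-2 cells were sorted beside them. The B-1a group comprised 4 libraries from WT and 4 from TET2-KO mice, the B-1b group 4 and 3, and the B-2 group 2 and 4. Because the deletion is global, all other cells of a TET2-KO mouse carry it as well. Nothing in the labels tells whether libraries of one group came from separate mice, so p-values measure the spread between these libraries.

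Integrins are cell surface receptors made of an alpha and a beta subunit, through which cells bind other cells and the extracellular matrix. The beta 2 subunit (Itgb2) pairs with the alpha L, M and X chains (Itgal, Itgam, Itgax) to form the leukocyte integrins LFA-1, Mac-1 and CD11c/CD18, while alpha 4 (Itga4) pairs with beta 1 (Itgb1) or beta 7 (Itgb7) in receptors for VCAM-1, fibronectin and the gut addressin MAdCAM-1. Alpha 6 (Itga6) forms laminin receptors, and alpha V (Itgav) and beta 3 (Itgb3) form a vitronectin receptor. CD11b, the product of Itgam, is a customary surface marker of B-1 cells in the peritoneal cavity, but it is also carried by peritoneal macrophages, and the panel used for sorting had no antibody to CD11b or F4/80.

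Total counts per library ranged from 9667187 to 24152518 (median 17425219). Levels are given in CPM (counts per 1000000 fragments counted, with library sizes scaled by TMM over all 21 libraries). Tet2, whose counts span all exons and therefore do not check the genotype labels, was at 8.46 to 27.2 CPM in WT and 12.6 to 30.3 CPM in TET2-KO libraries. A profile of 200 genes that separate the subsets among TET2-KO libraries, with immunoglobulin and integrin genes left out, matched 16 libraries to the subset on their label, which is no test for the TET2-KO libraries, since they served to choose the genes. The other 5 matched another subset best, and these are the 5 libraries labelled WT 1 or WT 2. The CD23 gene Fcer2a, a B-2 marker, was at 815 CPM in the library labelled B-1a WT 1 and at 598 CPM in that labelled B-1b WT 2, against 17.3 to 71.2 CPM in the other WT B-1 libraries. It was at 24.2 CPM in the library labelled B-2 WT 1 and at 755 CPM in B-2 WT 4. Labels were kept throughout, WT results are given with and without these 5 libraries, and subsets are compared mainly among TET2-KO libraries.

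Macrophage transcripts were present in every library. The macrophage gene Adgre1, which encodes F4/80, ranged from 40.9 to 395 CPM, and the summed level of 15 macrophage markers, none of them at 0 in any group, from 4415 to 30699 CPM, of which Lyz2 made up 80.3 to 90.4%. Among TET2-KO libraries the sum was 4918 to 29227 CPM in B-1a, 6462 to 15467 CPM in B-1b and 4415 to 20084 CPM in B-2 cells. Dendritic cell markers summed to 21.4 to 128 CPM over all libraries, mast cell markers to 293 to 1221 CPM and erythroid markers to 0.860 to 1705 CPM. Among TET2-KO libraries the mast cell sum was 767 to 1221 CPM in B-1a, 353 to 686 CPM in B-1b and 571 to 1199 CPM in B-2 cells. The part of these cells in the integrin levels was not tested. In such bulk samples, fewer cells of a type and less RNA per cell cannot be told apart.

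Levels of different subunits can be compared only per length of exon, here as CPM per kb. In all 6 groups Itgb7, Itgb1 and Itgb2 stood highest over the full exon length. In TET2-KO B-1a cells Itgb7 was at 242 ± 21.6 CPM per kb (SD, n = 4), Itgb1 at 126 ± 28.3 and Itgb2 at 115 ± 48.0, and the ranges of Itgb1 and Itgb2 overlapped. The alpha chains followed, with Itgam at 18.3 ± 3.76, Itgal at 10.6 ± 0.355, Itga4 at 7.53 ± 1.75 and Itga6 at 6.89 ± 3.29 CPM per kb. Itgav (1.21 ± 0.173), Itgb3 (0.244 ± 0.143) and Itgax (0.0448 ± 0.0619) stood lowest, and the ranges of Itgb3 and Itgax overlapped. In TET2-KO B-2 cells Itgb7 (133 ± 36.3), Itgb2 (87.8 ± 41.8) and Itgb1 (32.1 ± 13.6) overlapped from one to the next.

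The per-length level of Itgam is uncertain. Of its 5024 exon bases (ENSMUSG00000030786.19, chromosome 7, 127661812 to 127717663, plus strand, GRCm39), 3450 (68.7%) are also exons of the protein-coding gene model Gm49368 on the same strand. The authors counted without the option for reads that overlap several genes, so fragments within shared exons were assigned to neither gene. Gm49368 itself reached at most 5 counts in a library. Divided by the 1574 unshared bases, most of which (1186) lie at the 3' end of the gene, Itgam stood at 58.5 ± 12.01 CPM per kb in TET2-KO B-1a cells (n = 4), and it exceeded Itgal in all 6 group means and, in TET2-KO B-2 cells (34.8 CPM per kb), also Itgb1 (32.1), whereas over the full length Itgal was above Itgam in WT B-1b cells. Comparisons of Itgam between libraries rest on the same bases in each library. The corresponding shared part was 8.04% of Itga4 (with Cerkl) and 5.90% of Itgav (with Gm13684), and 0% of the other 7 members.

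**Figure D1:**
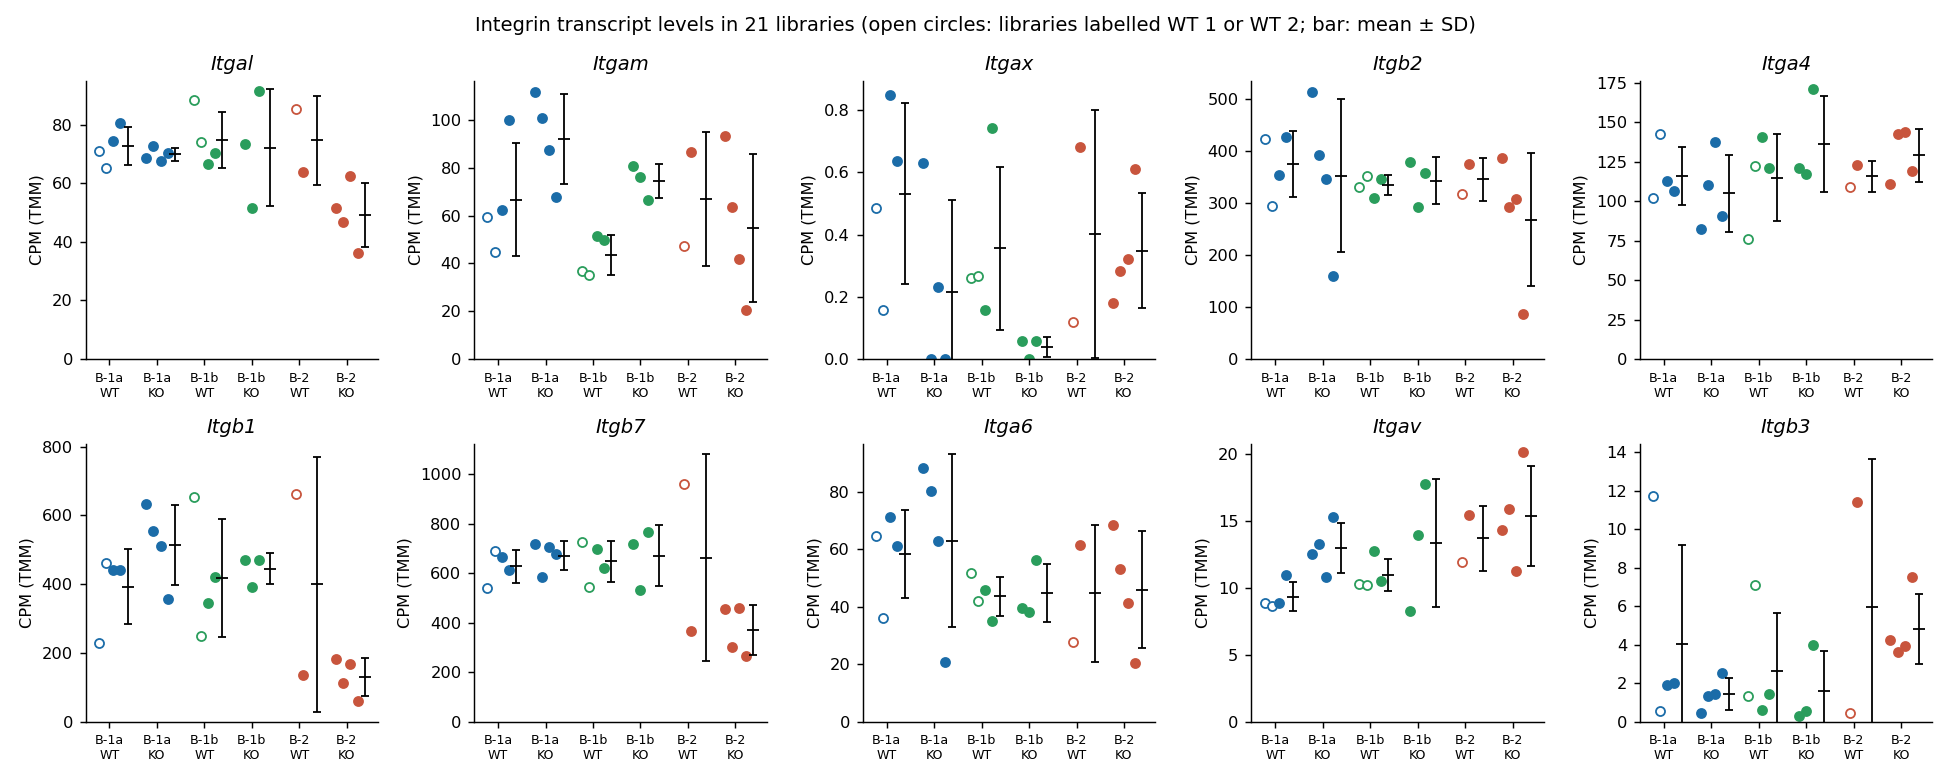
Each panel plots 1 integrin gene in CPM (vertical axis, from 0) for the 6 groups, with 1 point per library and the mean ± SD (bar, cut off at 0) beside it; open circles are the libraries labelled WT 1 or WT 2. In TET2-KO cells the Itgb1 and Itgb7 points of B-1a and B-1b cells lie above all B-2 points, whereas those of Itgb2, Itga4 and Itga6 overlap.

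Among TET2-KO libraries, the largest difference between subsets that passed the test was in Itgb1 (ENSMUSG00000025809.16, chromosome 8, 129412135 to 129459681, plus strand), the partner of many alpha chains. In TET2-KO cells it stood at 633, 553, 510 and 358 CPM in the 4 B-1a libraries, at 471, 393 and 471 CPM in the 3 B-1b libraries and at 183, 112, 167 and 61.7 CPM in the 4 B-2 libraries. Every B-1 library was above every B-2 library, while B-1a and B-1b cells overlapped. The level was 3.85-fold higher in B-1a than in B-2 cells (log2 fold change 1.95, standard error 0.29, 95% interval 1.34 to 2.55, adjusted p = 0.000543, edgeR's quasi-likelihood test) and 3.32-fold higher in B-1b than in B-2 cells (1.73, standard error 0.30, adjusted p = 0.00474). The second call was lost when all 21 libraries shared one fit (log2 fold change 1.77, adjusted p = 0.0905). B-1a against B-1b gave a log2 fold change of 0.22 (95% interval -0.42 to 0.85, adjusted p = 0.905).

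With Adgre1 as a covariate, an alternative chosen after seeing the data, the log2 fold changes of Itgb1 were 1.95 (adjusted p = 1.3e-05, edgeR) and 1.69 (adjusted p = 0.000205). The part of macrophage transcripts in the Itgb1 levels was not tested further.

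Itgb7 (ENSMUSG00000001281.11, chromosome 15, 102124430 to 102140379, minus strand), the gut-homing beta chain, showed a smaller difference. It stood at 716, 585, 706 and 677 CPM in B-1a, 716, 533 and 765 CPM in B-1b and 455, 300.5, 457 and 267 CPM in B-2 cells of TET2-KO mice. Again all B-1 values were above all B-2 values. The fold was 1.78 in B-1a cells (log2 fold change 0.83, standard error 0.21, adjusted p = 0.0260, edgeR) and 1.77 in B-1b cells, which did not pass (0.82 on the log2 scale, standard error 0.22, adjusted p = 0.0682). The B-1a call was lost without B-1a replicate 1 (adjusted p = 0.0593), B-1a replicate 3 (0.0682), B-2 replicate 2 (0.0970) or B-2 replicate 4 (0.0607), at log2 fold changes between 0.71 and 0.81. The B-1b comparison passed with DESeq2 (adjusted p = 0.0132). B-1a against B-1b gave a log2 fold change of 0.01 (95% interval -0.46 to 0.48).

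**Figure D2:**
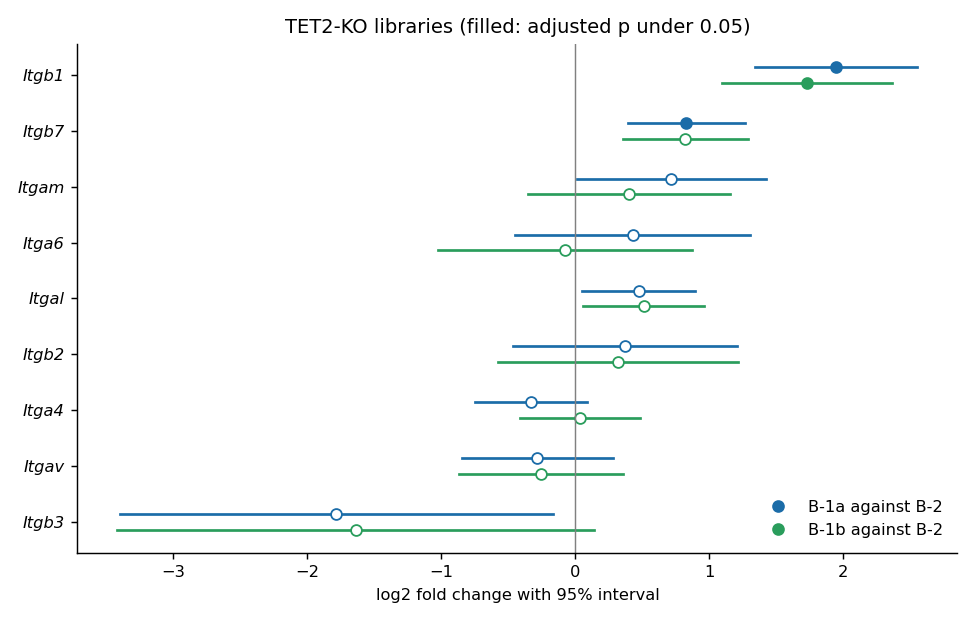
Log2 fold change (horizontal axis) with its 95% interval for 9 integrin genes in TET2-KO libraries, for B-1a against B-2 (blue) and B-1b against B-2 (green); filled points had an adjusted p under 0.05. Itgb1 was filled in both comparisons (1.95 and 1.73), and Itgb7 in B-1a against B-2 (0.83).

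Of the 9 members that passed the filter on low counts, 2 were called higher and 0 lower in B-1a against B-2 cells, where 5.82% of 18555 genes were called (3.26% higher and 2.57% lower). In B-1b against B-2 cells 1 was called higher and 0 lower, where 2.15% of genes were called (1.52% higher and 0.631% lower). Groups did not overlap for 4 members (Itgb1, Itgb7, Itgal, Itgb3) in the first comparison and 2 (Itgb1, Itgb7) in the second, against 19% and 19.3% of all genes. The median log2 fold change of the 9 was 0.43 and 0.32, against -0.05 and -0.10 over all genes tested. Between B-1a and B-1b cells 0 of 9 members were called by edgeR (0 at an unadjusted p under 0.05, 0 by DESeq2), where 0.205% of all genes were (0.0108% higher and 0.194% lower), 0 members had groups that did not overlap (6.05% of all genes), and the median was 0.01. The remaining member, Itgax, was filtered out.

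The promoters of the called genes are shown because both moved together, with that of Itgam, which did not pass, for comparison. Each is the stretch of 250 bases before the transcription start in the RefSeq promoter table, placed in GRCm39 and printed 5' to 3' on the gene's strand. Capitals mark AGGAAG or its reverse complement CTTCCT, letters that ETS family factors such as PU.1, a master factor of myeloid and B cells, can bind. Sequences lie at chr8:129411885-129412134 (Itgb1, plus strand), chr15:102140371-102140620 (Itgb7, minus strand) and chr7:127661562-127661811 (Itgam, plus strand).
Itgb1: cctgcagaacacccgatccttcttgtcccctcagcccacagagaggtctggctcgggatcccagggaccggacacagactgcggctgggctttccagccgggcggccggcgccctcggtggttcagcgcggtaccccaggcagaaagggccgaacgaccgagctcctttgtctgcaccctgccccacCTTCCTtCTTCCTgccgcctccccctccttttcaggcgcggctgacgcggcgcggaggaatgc
Itgb7: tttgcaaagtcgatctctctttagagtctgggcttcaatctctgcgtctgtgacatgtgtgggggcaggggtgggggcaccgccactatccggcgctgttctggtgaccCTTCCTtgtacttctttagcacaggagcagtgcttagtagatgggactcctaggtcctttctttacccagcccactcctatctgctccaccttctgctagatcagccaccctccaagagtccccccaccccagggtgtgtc
Itgam: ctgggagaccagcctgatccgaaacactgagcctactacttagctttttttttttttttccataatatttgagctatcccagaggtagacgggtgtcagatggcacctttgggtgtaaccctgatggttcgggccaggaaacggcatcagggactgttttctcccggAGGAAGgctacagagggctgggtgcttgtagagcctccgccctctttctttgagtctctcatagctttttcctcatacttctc

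The window of Itgb1 held 2 matches and those of Itgb7 and Itgam 1 each. These letters occur in 29.5% of the 32851 promoters of the table, and in 4 of the 6 members that it lists, so a match is a description and not a site. The last 9 bases of the Itgb7 window lie inside the first exon of the gene model used for counting.

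The balance of beta chains, from the same counts, had a lower ratio of Itgb7 to Itgb1 in B-1 than in B-2 cells, without passing adjustment. The ratio of Itgb7 to Itgb1, in counts per kb, was 2.01 ± 0.56 (SD, n = 4) in B-1a, 2.21 ± 0.20 (n = 3) in B-1b and 4.51 ± 1.25 (n = 4) in B-2 cells of TET2-KO mice. B-2 values (3.65 to 6.37) did not overlap with those of B-1a (1.56 to 2.79) or B-1b cells (2.00 to 2.39). The ratio differed from B-2 cells by -1.16 (log2) in B-1a and -0.996 in B-1b cells (two-sided exact permutation p = 0.0286 in both, the smallest these numbers of libraries allow, adjusted p = 0.179 over 25 ratios and comparisons). The summed Itgb1 and Itgb7 relative to Itga4 was 51.0 ± 13.8 in B-1a, 36.5 ± 5.94 in B-1b and 18.2 ± 6.32 in B-2 cells. B-1a cells were 2.86-fold above B-2 cells (exact permutation p = 0.0286, adjusted p = 0.179). The summed Itgal, Itgam and Itgax relative to Itgb2 reached the same p between genotypes in B-1b cells as labelled. It was 1.26-fold higher in TET2-KO than in WT libraries, without overlap (exact permutation p = 0.0286, adjusted p = 0.179). Of the 25 ratios and comparisons, 0 passed adjustment.

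**Figure D3:**
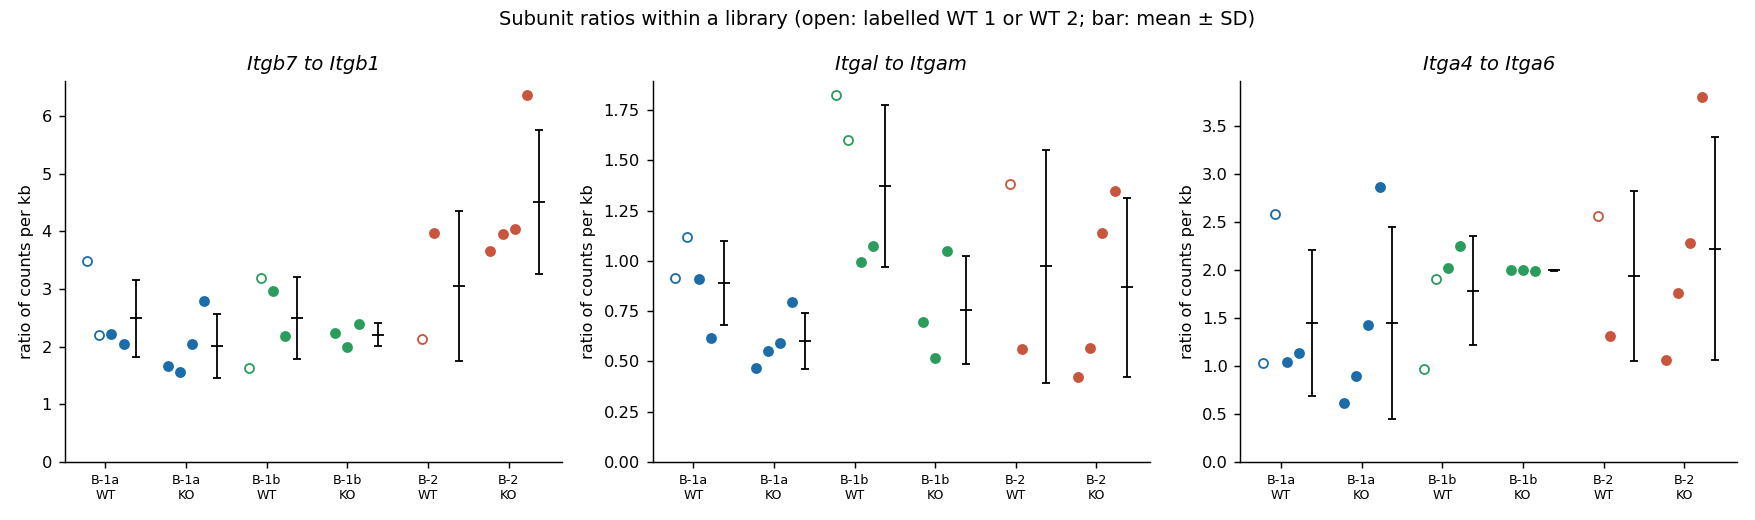
Ratios of counts per kb within a library (vertical axis, from 0) for Itgb7 to Itgb1, Itgal to Itgam and Itga4 to Itga6 in the 6 groups, with the mean ± SD beside the points; open circles are the libraries labelled WT 1 or WT 2. TET2-KO B-2 cells have the highest Itgb7 to Itgb1 ratios (3.65 to 6.37). Itgam was divided by its full exon length, so its ratio to Itgal is only comparable between libraries.

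Among the leukocyte integrins, Itgal, the alpha chain of LFA-1 (ENSMUSG00000030830.19, chromosome 7, 126895432 to 126934310, plus strand), varied least within B-1a cells. TET2-KO B-1a libraries held 68.6, 72.8, 67.5 and 70.5 CPM, B-1b libraries 73.5, 51.6 and 91.3 CPM, and B-2 libraries 51.5, 46.9, 62.6 and 36.1 CPM. All B-1a values were above all B-2 values, but neither B-1a (log2 fold change 0.47, standard error 0.20, adjusted p = 0.157, edgeR) nor B-1b cells (log2 fold change 0.51, standard error 0.21, adjusted p = 0.209) passed against B-2 cells.

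Itgb2, the shared beta chain (ENSMUSG00000000290.14, chromosome 10, 77366086 to 77401542, plus strand), overlapped between all subsets. It was at 513, 392, 345 and 160 CPM in TET2-KO B-1a, 378, 292 and 357 CPM in B-1b and 386, 291, 307 and 87.2 CPM in B-2 cells (log2 fold change B-1a against B-2 0.37, standard error 0.39, adjusted p = 0.602, edgeR). The lowest values in B-1a and B-2 cells were both in replicate 4, the libraries with the lowest Adgre1 of the series (45.7 and 40.9 CPM). Within a subset, Itgb2 and Adgre1 correlated at r = 0.98 in B-1a cells (n = 8, rho = 0.90, exact permutation p = 0.000546 and 0.00456) and r = 0.99 in B-2 cells (n = 6, rho = 0.77, exact permutation p = 0.0278 and 0.103), but at r = 0.05 in B-1b cells (n = 7, rho = 0.14, exact permutation p = 0.934 and 0.783), where Adgre1 spanned only 153 to 231 CPM. Adjusted over the 6 correlations of Itgb2 and Itga6, which were chosen after their values were seen, p for r was 0.00327, 0.0417 and 0.934. Without the 2 libraries farthest from the median of Adgre1, r was 0.90, 0.88 and 0.32.

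Itga6, the laminin receptor chain (ENSMUSG00000027111.17, chromosome 2, 71575960 to 71688760, plus strand), followed the same libraries. TET2-KO B-1a libraries held 88.1, 80.2, 62.9 and 20.7 CPM, B-1b libraries 39.5, 38.2 and 56.3 CPM, and B-2 libraries 68.5, 53.2, 41.4 and 20.5 CPM, with replicate 4 lowest in B-1a and in B-2 cells and with overlap between all subsets (B-1a against B-2 log2 fold change 0.43, adjusted p = 0.560, and B-1a against B-1b 0.51, adjusted p = 0.879, edgeR). The correlation with Adgre1 was 0.94 in B-1a cells (n = 8, rho = 0.79, exact permutation p = 0.00531 and 0.0279, adjusted p for r = 0.0106), 0.87 in B-2 cells (n = 6, rho = 1.0, exact permutation p = 0.00278 for both, adjusted p = 0.00833) and -0.61 in B-1b cells (n = 7, rho = -0.68, exact permutation p = 0.139 and 0.110). Without the 2 farthest libraries r was 0.70, 0.77 and -0.68. The source of Itgb2 and Itga6 transcripts was not tested.

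**Figure D4:**
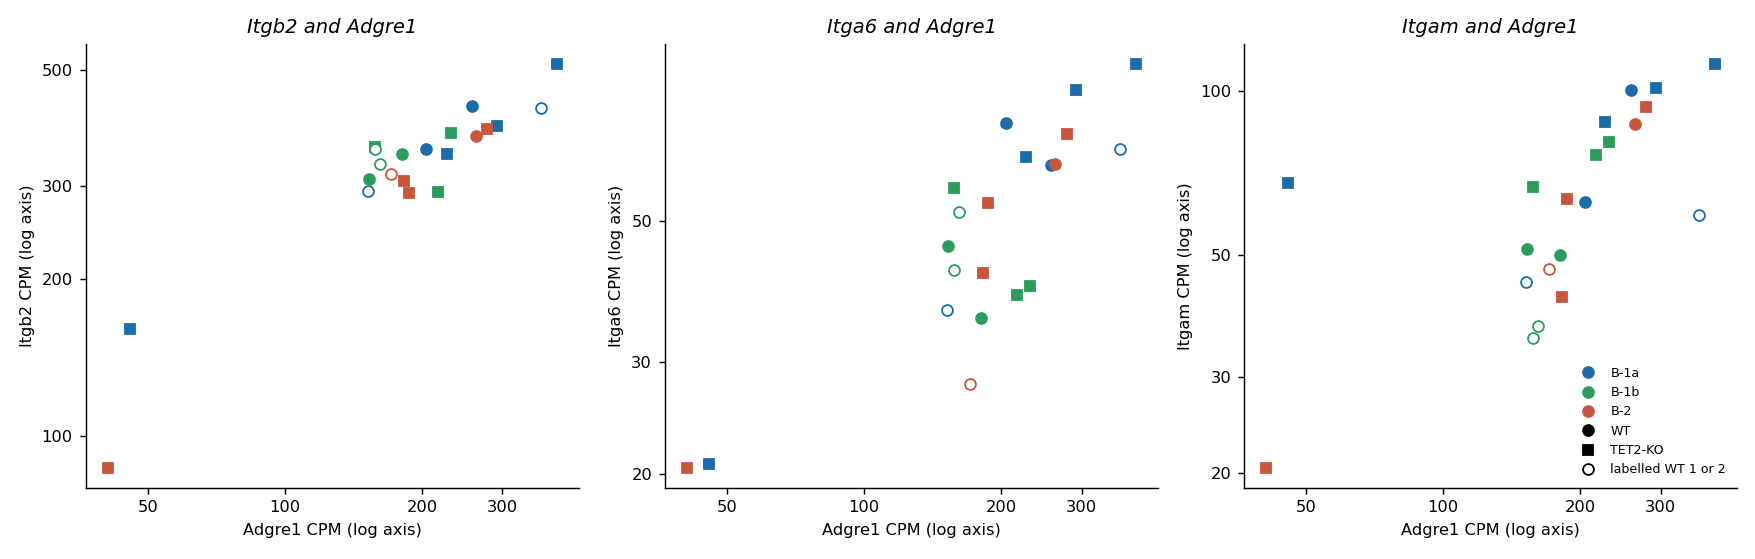
Itgb2, Itga6 and Itgam (vertical log axes, CPM) against the macrophage gene Adgre1 (horizontal log axis, CPM), 1 point per library; colour gives the subset, circles are WT, squares TET2-KO, and open circles the libraries labelled WT 1 or WT 2. The 2 libraries with least Adgre1 (40.9 and 45.7 CPM) have the least Itgb2 (87.2 and 160 CPM), while Itgam at 45.7 CPM of Adgre1 is 67.9 CPM.

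Itgam, the alpha chain of Mac-1, was at 112, 101, 87.5 and 67.9 CPM in TET2-KO B-1a, 80.6, 76.1 and 66.6 CPM in B-1b and 93.5, 63.4, 42.0 and 20.5 CPM in B-2 cells. B-2 cells covered the widest range, and the subsets overlapped. Neither B-1a (log2 fold change 0.72, standard error 0.33, adjusted p = 0.196, edgeR) nor B-1b cells (0.40, standard error 0.35, adjusted p = 0.554) passed against B-2 cells. The B-1a difference passed with no filter on low counts (0.71, adjusted p = 0.0295), with the macrophage marker sum (0.87, adjusted p = 0.0403) or with Adgre1 (0.80, adjusted p = 0.0412) as a covariate. Without B-2 replicate 4 it was 0.45 (adjusted p = 0.397).

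The check of Itgam against Adgre1 gave a different r in each labelled subset, and the difference between subsets was not tested. The correlation was 0.94 in B-2 cells (n = 6, rho = 0.94, exact permutation p = 0.0111 and 0.0167, adjusted p = 0.0667 and 0.1 over 6 correlations), 0.40 in B-1a cells (n = 8, rho = 0.55, exact permutation p = 0.360 and 0.171) and 0.73 in B-1b cells (n = 7, rho = 0.46, exact permutation p = 0.0758 and 0.302). Of these 6 correlations of Itgam and Itgax, 0 passed adjustment. Without the 2 libraries farthest from the median of Adgre1, r was 0.88, 0.48 and 0.0038, so the B-1b value rests on those 2 libraries. With those labelled WT 1 or WT 2 left out, r in B-1a cells was 0.70 and rho 0.94 (n = 6, unadjusted exact permutation p = 0.122 and 0.0167). There r was 0.88 without the 2 libraries farthest from the median of Adgre1. The ratio of Itgam to Adgre1, in counts per kb of full exon length, was 0.105 to 0.322 in 20 libraries and 0.958 in TET2-KO B-1a replicate 4. That library kept 67.9 CPM of Itgam with 45.7 CPM of Adgre1, whereas TET2-KO B-2 replicate 4, with 40.9 CPM of Adgre1, held 20.5 CPM of Itgam.

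Itgax (ENSMUSG00000030789.10, chromosome 7, 127728719 to 127749829, plus strand), the gene of CD11c, was close to undetected. It had 0 to 14 counts per library, at most 0.847 CPM. In TET2-KO cells it was at 0.630, 0, 0.230 and 0 CPM in B-1a, 0.0591, 0 and 0.0567 CPM in B-1b and 0.179, 0.282, 0.322 and 0.610 CPM in B-2 cells, and the filter on low counts left it out of these comparisons. The 3 B-1b values lay below all 4 B-2 values, at 0 or 1 count per library against 3 to 9, and this was not tested. Its correlation with Adgre1 was 0.55 in B-1a, -0.32 in B-1b and -0.40 in B-2 cells (exact permutation p = 0.164, 0.483 and 0.581, n = 8, 7 and 6). The values of rho were 0.30, -0.14 and -0.03 (exact permutation p = 0.468, 0.783 and 1.0). Without the 2 libraries farthest from the median of Adgre1, r was 0.05, 0.91 and 0.95 (n = 6, 5 and 4). The negative values in B-1b and B-2 cells thus rest on those 2 libraries.

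Itga4 (ENSMUSG00000027009.19, chromosome 2, 79085770 to 79163467, plus strand) is the partner of Itgb1 and Itgb7. It stood at 82.4, 110, 137 and 90.9 CPM in TET2-KO B-1a, 121, 117 and 172 CPM in B-1b and 111, 143, 144 and 119 CPM in B-2 cells, with overlap throughout. Its log2 fold change was -0.33 in B-1a against B-2 cells (standard error 0.20, 95% interval -0.75 to 0.09, adjusted p = 0.314, edgeR), 0.04 in B-1b against B-2 cells (95% interval -0.42 to 0.49) and -0.37 in B-1a against B-1b cells (adjusted p = 0.858). Both intervals against B-2 cells end below the interval of Itgb1 in the same comparison, while in B-1b against B-2 cells the interval overlaps that of Itgb7 (0.35 to 1.29).

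The vitronectin receptor chains were scarce. Itgav (ENSMUSG00000027087.12, chromosome 2, 83554741 to 83637260, plus strand) was at 10.8 to 15.3 CPM in TET2-KO B-1a, 8.27 to 17.8 CPM in B-1b and 11.2 to 20.2 CPM in B-2 cells (log2 fold change B-1a against B-2 -0.28, adjusted p = 0.551, edgeR). Itgb3 (ENSMUSG00000020689.5, chromosome 11, 104498826 to 104561302, plus strand) had point estimates opposite to Itgb1. It stood at 0.441, 1.36, 1.44 and 2.51 CPM in B-1a, 0.295, 0.543 and 3.97 CPM in B-1b and 4.25, 3.60, 3.92 and 7.52 CPM in B-2 cells. All B-1a values were below all B-2 values, while the highest B-1b value lay within the B-2 range. At these few counts neither difference passed (log2 fold changes -1.78, standard error 0.76, adjusted p = 0.165, and -1.64, standard error 0.84, adjusted p = 0.291). The B-1b difference of Itgb3 passed without B-1b replicate 3, the library with 3.97 CPM (-3.61, adjusted p = 0.0437, edgeR). Itgb3 is also a platelet integrin. The summed platelet markers were 175 to 371 CPM in B-1a, 91.7 to 219 CPM in B-1b and 146 to 282 CPM in B-2 cells of TET2-KO mice. Only 2 of the 6 markers passed the filter on low counts. In TET2-KO libraries Gp1bb was at 0 throughout, Ppbp in B-1a and B-1b and Gp9 in B-1a and B-2 cells, so these sums rest on few of the markers. The part of platelet transcripts in the Itgb3 values was not tested.

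Transcripts of 2011 odorant and vomeronasal receptor genes, whose products serve the senses of smell and pheromones, also differed between libraries. Their summed level was 412 to 1987 CPM in B-2, 108 to 436 CPM in B-1a and 171 to 683 CPM in B-1b cells of TET2-KO mice, 12.3 to 23.1 CPM in the 5 libraries labelled WT 1 or WT 2 and 230.5 to 644 CPM in the other 5 WT libraries. Over the 21 libraries, r of log2 CPM with this sum was -0.61 for Itgal, -0.60 for Itgb7, -0.51 for Itgb1 and 0.63 for Itgav. For the other members it was -0.21 to 0.38. The part of these receptor transcripts in the subset differences was not tested.

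Across WT libraries as labelled, 0 of 10 members were called by edgeR in any subset comparison (0 also by DESeq2). All 10 passed the filter on low counts. At an unadjusted p under 0.05 there was 1 member in B-1a against B-2 cells (Itgav, log2 fold change -0.60, lower in all 4 B-1a libraries) and 0 in the other 2 comparisons. Groups did not overlap for 0, 1 and 0 members in B-1a against B-1b, B-1a against B-2 and B-1b against B-2, against 1.15%, 4.75% and 4.81% of all genes. Of 16769 genes 0 were called (0%), with 206, 165 and 158 genes at an unadjusted p under 0.05 in these comparisons. Itgb1 stood at 229, 462, 441 and 442 CPM in B-1a, 653, 251, 347 and 420 CPM in B-1b and 662 and 136 CPM in B-2 libraries. The low B-1 values (229 and 251 CPM) and the high B-2 value (662 CPM) were all in libraries labelled WT 1 or WT 2.

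Without those 5 libraries 2 B-1a, 2 B-1b and 1 B-2 library remained, the single B-2 library being assumed to vary as the other groups. The 5 were set apart by a profile of genes that separate the subsets, so these values are not independent of that choice. Against the single B-2 library only the size of a difference is given. Of 18629 genes 7.16% were then called in B-1a against B-2, 5.53% in B-1b against B-2 and 3.22% in B-1a against B-1b cells. Itgb1 was at 441 and 442 CPM in B-1a, 347 and 420 CPM in B-1b and 136 CPM in B-2 cells. Its log2 fold changes against B-2 cells were 1.70 and 1.48, where the values as labelled were -0.04 and 0.05. Itgb7 was at 665 and 614 CPM, 699 and 623 CPM and 368 CPM, with log2 fold changes of 0.80 and 0.83. Itgb3 was at 1.89 and 2.01 CPM, 0.626 and 1.43 CPM and 11.4 CPM, with log2 fold changes of -2.54 and -3.47. Between B-1a and B-1b cells, Itgam (62.4 and 100.2 against 51.4 and 49.99 CPM, log2 fold change 0.70, adjusted p = 0.0482) and Itga6 (71.2 and 61.2 against 45.7 and 35.1 CPM, 0.73, adjusted p = 0.0054) were higher in B-1a cells, beside Adgre1 at 204 and 258 against 153 and 180 CPM. Both also stood lower in B-1b than in B-2 cells (log2 fold changes -0.79 and -0.62), where Adgre1 was at 263 CPM. The part of macrophage transcripts in these 4 values was not tested. In all, 2 members passed in B-1a against B-1b.

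**Figure D5:**
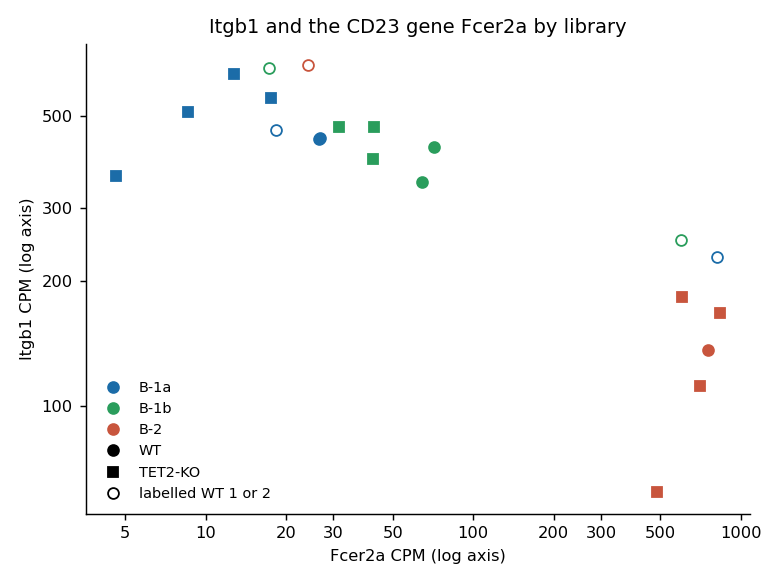
Itgb1 against the CD23 gene Fcer2a, both in CPM on log axes, 1 point per library; colour gives the labelled subset, circles are WT, squares TET2-KO, and open circles the libraries labelled WT 1 or WT 2. The libraries labelled B-1a WT 1 and B-1b WT 2 lie beside the B-2 libraries at high Fcer2a (815 and 598 CPM) and low Itgb1 (229 and 251 CPM), and that labelled B-2 WT 1 lies among B-1 libraries (24.2 and 662 CPM).

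Between TET2-KO and WT libraries of a subset no member passed the threshold. Of the members tested, 0 of 9 were called in B-1a cells (0.0503% of 13923 genes were, 0.00718% higher and 0.0431% lower), 0 of 9 in B-1b cells (0% of 14368 genes) and 0 of 10 in B-2 cells (0% of 19786 genes) by edgeR, with 1, 1 and 2 members at an unadjusted p under 0.05 and 0 by DESeq2 in each. The largest point estimate above 0 was that of Itgam in B-1b cells, where the 3 TET2-KO libraries (80.6, 76.1 and 66.6 CPM) stood above the 4 WT libraries (37.1, 35.3, 51.4 and 49.99 CPM), and 7.68% of all genes had no overlap in either direction. The log2 fold change was 0.80 (standard error 0.19, 95% interval 0.38 to 1.22, adjusted p = 0.838, edgeR), 0.56 when those labelled WT 1 or WT 2 were left out, and 0.40 with Adgre1 as a covariate. Adgre1 itself was at 231, 217 and 158 CPM in these TET2-KO and 162, 158, 153 and 180 CPM in these WT libraries.

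In B-1a cells Itgam was at 59.3, 44.6, 62.4 and 100.2 CPM in WT and 112, 101, 87.5 and 67.9 CPM in TET2-KO libraries (log2 fold change 0.49, adjusted p = 0.643, edgeR), and the groups overlapped, as they did for the 9 members tested in B-1a cells (5.55% of all genes had groups that did not overlap). The value was 0.19 when those labelled WT 1 or WT 2 were left out. Itgav was at 8.89, 8.67, 8.86 and 10.97 CPM in WT and 12.5, 13.3, 10.8 and 15.3 CPM in TET2-KO libraries (0.51, standard error 0.19, adjusted p = 0.604), with 1 WT value within the TET2-KO range. The interaction of genotype and subset, that is the TET2-KO effect in B-1a minus that in B-1b libraries, was -0.32 for Itgam (95% interval -1.02 to 0.39) and 0.28 for Itgb1 (-0.57 to 1.14), and 0 of 10 members and 0 of 15972 genes passed (0 members and 250 genes at an unadjusted p under 0.05, 0 members by DESeq2).

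In B-2 cells the comparison rests on 2 WT libraries, of which 1 matched another subset. Itgb1 was at 662 and 136 CPM in WT and 183, 112, 167 and 61.7 CPM in TET2-KO libraries (log2 fold change -1.58, standard error 0.59, adjusted p = 0.531, edgeR), and at -0.04 without the library labelled WT 1. It passed without B-2 WT 4 (-2.28, adjusted p = 0.0424), which leaves only the library labelled WT 1 in the group, and with no filter on low counts (adjusted p = 0.0055). Itgb7 (959 and 368 against 455, 300.5, 457 and 267 CPM) had a log2 fold change of -0.82, which was 0.03 without the library labelled WT 1. Itgal was lower in all 4 TET2-KO libraries (51.5, 46.9, 62.6 and 36.1 CPM) than in both WT libraries (85.4 and 63.9 CPM), at -0.58 (adjusted p = 0.531), where 20% of all genes had groups that did not overlap.

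The other 16 integrin subunit genes were scarce. In B-1a against B-2 cells of TET2-KO mice 13 were tested, and 1 fell. This was Itga1, a collagen receptor chain, at 1.06 ± 0.59 CPM (SD, n = 4) in B-1a and 6.63 ± 5.001 CPM (n = 4) in B-2 cells (log2 fold change -2.69, adjusted p = 0.0470, edgeR), and its groups overlapped. The median of the 13 was -1.45, against -0.05 over all genes tested, and 2 had values above 0. The median over all genes depended on their level. It was -1.05 with no filter on low counts and 0.012 among genes with at least 10 counts in every library. In B-1b against B-2 cells 0 of 13 passed by edgeR (4 at an unadjusted p under 0.05), with a median of -1.88. DESeq2 called 2 of the other subunits lower, where it called 2333 of 44737 genes lower. There the median over all genes was -1.38 with no filter and 0.0025 among genes with at least 10 counts in every library. The 13 genes themselves passed the filter, and no set of genes of like level was compared. Whether the low medians are particular to integrins was not tested. Mean levels of these genes were 6.63 CPM or less in TET2-KO B-1a and B-2 cells.

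Of 30 genes tested that activate integrins or link them to the cytoskeleton, 2 rose and 2 fell in B-1a against B-2 cells by edgeR, where 3.26% of all genes rose and 2.57% fell, and DESeq2 called 3 higher and 4 lower. Rap1a, a GTPase that turns integrins on, rose (344 ± 46.1 against 193 ± 37.2 CPM, log2 fold change 0.80, adjusted p = 0.0194, edgeR), and so did Lims1, the adaptor PINCH1 (158 ± 21.8 against 95.2 ± 13.6 CPM, 0.70, adjusted p = 0.0243). Rasgrp3, an exchange factor for Rap1 and Ras, fell (15.1 ± 6.15 against 110 ± 7.87 CPM, -2.89, adjusted p = 1.71e-05), as did Ptk2b, the focal adhesion kinase PYK2 (89.4 ± 17.3 against 207 ± 39.9 CPM, -1.24, adjusted p = 0.00206). In each of these 4 genes the groups did not overlap (n = 4 in each). Over all 44737 genes with counts, DESeq2 called 852 higher and 2626 lower in B-1a against B-2 cells. For B-1b against B-2 cells it called 539 higher and 2333 lower. In B-1b against B-2 cells only Rasgrp3 passed (27.8 ± 8.18 CPM, n = 3, -2.02, adjusted p = 0.00188), 1 of 30 by edgeR (1.52% of all genes rose and 0.631% fell), with 8 at an unadjusted p under 0.05 and 6 by DESeq2.

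Of 17 integrin ligand genes tested, 2 rose and 0 fell in both comparisons by edgeR, against the same shares of all genes (3.26% and 2.57%, and 1.52% and 0.631%). DESeq2 called 2 higher and 4 lower in B-1a against B-2 cells and 2 higher and 2 lower in B-1b against B-2 cells. Its lower calls also outnumbered its higher calls over all genes (2626 against 852, and 2333 against 539). F11r, which encodes JAM-A, a ligand of LFA-1, was at 31.0 ± 2.84 CPM in B-1a, 15.1 ± 7.02 in B-1b and 2.99 ± 2.43 in B-2 cells (log2 fold changes 3.33, adjusted p = 0.000484, and 2.28, adjusted p = 0.0204, edgeR). Nid1, the basement membrane protein nidogen, was at 148 ± 30.7, 179 ± 75.8 and 62.7 ± 17.8 CPM (1.21, adjusted p = 0.00957, and 1.47, adjusted p = 0.00790). Of 12 tetraspanins and lateral partners, 0 passed in either comparison (3 and 1 at an unadjusted p under 0.05, 1 and 0 by DESeq2).

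Of 15 homing receptors, 0 rose and 3 fell in B-1a against B-2 cells by edgeR (3.26% and 2.57% of all genes). DESeq2 called 1 higher and 5 lower, against 852 higher and 2626 lower of 44737 genes. Those that fell by edgeR included Ccr6 (0.897 ± 0.591 against 18.2 ± 3.27 CPM, log2 fold change -4.37, adjusted p = 7.79e-05, edgeR) and Ccr7, the receptor that leads lymphocytes into lymph nodes (81.3 ± 36.8 against 572 ± 183 CPM, -2.84, adjusted p = 0.000309). In B-1b against B-2 cells 0 rose and 1 fell by edgeR (1.52% and 0.631% of all genes), Ccr6 (4.41 ± 2.54 CPM, -2.09, adjusted p = 0.0439). DESeq2 called 0 higher and 3 lower there, against 539 and 2333 over all genes. Between B-1a and B-1b cells 0 genes of these 5 lists passed by edgeR, with 9 at an unadjusted p under 0.05 in all. DESeq2 called 2 homing receptors there, and 141 of 44737 genes. Between TET2-KO and WT libraries 0 genes of the lists passed in any subset by edgeR, and DESeq2 called 1 homing receptor in B-1a cells (189 of 38366 genes). Across WT libraries as labelled 0 passed by either tool. The macrophage list passed for 0 of 15 genes in all comparisons by both tools. In TET2-KO cells 14 of 15 had values above 0 in B-1a against B-2 cells (median log2 fold change 0.23) and 2 of 15 in B-1b against B-2 cells (median -0.31).

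The genes most like each member over the 21 libraries, by Pearson's r of log2 CPM among 22441 genes, are given as a description, since the libraries share subset, depth and macrophage content. Closest to Itgb1 were Fcrl5 (0.98), Ptpn1, Sirpa, Aldh2 and Slc7a7, and closest to Itgb7 were Mvp (0.97), Pacsin2, Rab31 and Pld4. Itgb2 was closest to Asah1 (0.96), Gusb, Hgsnat, Fam234a and St3gal4, of which the first 3 encode lysosomal enzymes. Itga6 was closest to Prg4 (0.92), App, Csf1r and Tspan4, of which Csf1r was on the macrophage list. For Itgam they were Ctsf (0.88), Csf2ra, 4930455G09Rik, Dok2 and Plxna4os1, and for Itgal Med22 (0.94), Pisd, Stx11, Mvd and Ptpn7. Itgb3 was closest to Sorl1 (0.93), Sdc4, Myh9, Gm49439 and Phc1. Likeness was lower for Itgav (Gm19522, 0.87, then Ift56, Meg3, Gm10824 and Pou4f1), Itgax (Exoc3l2, 0.80, then 1700006J14Rik, Eldr, Gm30978 and Fsd2) and Itga4 (Iqcb1, 0.77, then Cep350, Klhl14, Arhgap5 and Stac2).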

How the data were processed

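RNA-seq was performed on 21 libraries of sorted peritoneal B cells. Per the file headers and the labels, the authors used fastp for trimming and STAR for alignment to GRCm39, and deposited raw fragment counts per gene, made by featureCounts 1.6.1 without strand on GENCODE vM32, so reads of a gene and an antisense partner cannot be told apart. Fragments that overlap exons of several genes or map to several places were left out of those counts. Symbols were taken from GENCODE vM39 by gene identifier (56310 of 56953 matched). Total counts per library ranged from 9667187 to 24152518, and intervals of low genes widen with fewer counts.

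Counts were tested with edgeR 4.0.16 (R 4.3.3; TMM, filterByExpr by group, robust quasi-likelihood test, Benjamini-Hochberg adjustment over all genes tested, threshold 0.05). The 3 subsets of a genotype shared one fit, genotypes were compared within a subset, and an interaction was fitted over B-1a and B-1b libraries. DESeq2 1.42.0 was an alternative. The scripts were tested on simulated data. Ratios and correlations (log2 of CPM + 0.5) were tested by two-sided exact permutation in scipy 1.17.1. No libraries were identical (0 of 210 pairs). No main test paired samples by replicate number, and a replicate block was an alternative. Deviations of same-numbered TET2-KO B-1a and B-1b libraries correlated at r = 0.11 to 0.22 in 3 pairs, against -0.16 to 0.049 in pairs with other numbers. Over all same-numbered pairs of subsets r was -0.085 to 0.34 in TET2-KO (10 pairs) and -0.016 to 0.56 in WT libraries (8 pairs). Pairs with other numbers reached 0.24 in TET2-KO and 0.61 in WT libraries. The median r was 0.14 with the same number and -0.045 with other numbers in TET2-KO libraries. In WT libraries the medians were 0.27 and -0.12. Whether libraries of one number came from one mouse is not stated in the labels.

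All 10 members and the called genes of the lists are named, and the most alike genes by r, out of 5 for each member, except some genes that are not reported here. The members and lists were chosen with earlier results of these data known.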

Additional observations from a re-analysis of the deposited data

Results flagged for a closer look

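In 10 of 64 groups of 4 libraries tested, 1 library stood apart from the other 3 (Dixon's test at the 95% level), and chance alone flags about 1 in 20. Of these, 5 concern libraries labelled WT 1 or WT 2. The library labelled B-1a WT 1 had the lowest Itgb1 of its group (229 CPM), the highest Itgb3 (11.7 CPM) and the highest ratio of Itgb7 to Itgb1 (3.48). That labelled B-1b WT 2 had the highest Itgb3 of its group (7.09 CPM), and that labelled B-1a WT 2 the highest ratio of Itga4 to Itga6 (2.59).

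Of the others, TET2-KO B-2 replicate 4 had the highest Itgb3 of its group (7.52 CPM) and the highest ratio of Itgb7 to Itgb1 (6.37). Itgav was highest in B-1a WT 4 (10.97 CPM) and in B-1b WT 3 (12.8 CPM). The ratio of Itgam to Adgre1 was highest in TET2-KO B-1a replicate 4 (0.958). The cause was not tested.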

How the results depend on the processing

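Of the counts of called members, ratios and correlations that answer a comparison, 92 stayed close to the main count under an alternative, 9 rose and 1 fell. A change such as from 2 to 3 called was taken as close. Settings that leave out 1 library are not among these, and gave 112 close, 2 higher and 4 lower counts. In TET2-KO cells, the members called in B-1b against B-2 were 2 with DESeq2, with no filter, with the replicate block, with the macrophage covariate and with the Adgre1 covariate, and 0 with all 21 libraries in one fit. Leaving out 1 library gave 1 to 2 there and 1 to 2 in B-1a against B-2. With the 5 libraries labelled WT 1 or WT 2 left out, the WT count was 2 in B-1a against B-1b. The counts against B-2 cells rose too, but rest on 1 B-2 library. The genotype comparison in B-2 cells gave 1 with no filter and 0 to 1 without 1 library.

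For single genes, 307 values kept their side, 15 gained and 1 lost a call, and 16 reversed. Settings that leave out 1 library came on top, where 359 kept their side, 2 gained and 4 lost a call, and 11 reversed. Most reversals were in WT comparisons that hold the doubted libraries. Among WT libraries, the log2 fold change of Itgb1 in B-1a against B-2 was 0.38 with the replicate block and 0.70 with the macrophage covariate. It was 0.30 with the Adgre1 covariate, 1.70 with those 5 libraries left out, and -0.76 to 1.45 without 1 library. For Itgb7 it was 0.23 with the macrophage and 0.022 with the Adgre1 covariate, 0.80 with those 5 left out and -0.62 to 0.69 without 1 library, and for Itgb3 -2.07 to 3.06 without 1 library. In B-1b against B-2 of the WT libraries, Itgb1 was -0.14 with Adgre1 and -0.67 to 1.54 without 1 library. Itgb7 was 0.025 with the macrophage covariate, 0.83 with those 5 left out, and -0.57 to 0.74 without 1 library. Itgb3 was 0.25 with the macrophage covariate, 1.39 with Adgre1 and -2.42 to 2.44 without 1 library. Itgb7 between genotypes in B-2 cells was 0.027 without the library labelled WT 1 and -1.32 to 0.027 without 1 library. Among TET2-KO libraries, Itga6 in B-1a against B-1b was -0.030 with the macrophage covariate. The interaction of Itgb1 was -0.0033 to 0.47 without 1 library. With summed macrophage markers in place of Adgre1, r in B-1b cells was -0.45 for Itgam and 0.22 for Itgax. The cause was not tested.

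With the replicate block, Itgam in B-1a against B-2 of TET2-KO mice passed (0.87, adjusted p = 0.0211, edgeR), as did Itgb7 in B-1b against B-2 (0.77, adjusted p = 0.0201). The labels give these libraries a shared number and do not say whether it stands for a mouse. In B-1a against B-1b the block changed no call. The Adgre1 covariate and the length without shared exons were chosen after seeing the data.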
